A study of Mus musculus with 33 samples.

Results

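The members described here are 61 probes whose signal stood above the detection limit in resting RAW264.7 macrophages and lay below it on most arrays of cells given LPS. Each had a signal over noise (S/N, the scanner software's signal of a spot divided by its noise) of 3 or more on all 3 vehicle arrays, and under 3 on at least 24 of the 30 arrays of LPS-treated cells, compound-treated ones included. A quality flag of at most 5000 on the vehicle arrays was also required, and probes with an identifier starting with NM_ were left out. Of 33012 gene probes on the array, 13194 were detected on all 3 vehicle arrays with an acceptable flag, 13001 of them without an NM_ identifier, and 61 of these met the limit on LPS-treated arrays. The same S/N values chose the members, so their drop with LPS is a description, and counts of calls in that contrast are set beside the share of all probes and support nothing.

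RAW264.7 is a mouse macrophage-like cell line. LPS is a component of the outer wall of Gram-negative bacteria that macrophages sense through the receptor TLR4, after which they induce inflammatory and interferon-response genes and lower many transcripts of the resting state. Albiflorin and paeoniflorin, isomeric monoterpene glycosides, and paeonol, a phenolic ketone, are compounds of peony root. The 33 arrays form 11 groups of 3, which the series text calls biological replicates. Total RNA was taken at 6 h from cells given LPS at 1 µg/ml together with 1 of the 3 compounds (each at 1, 10 and 100 µg/ml), from cells given LPS alone, and from cells given only the vehicle, 0.1% DMSO. The labels used here give a DMSO content for the vehicle cells only. The arrays were single-colour oligonucleotide arrays, hybridised with digoxigenin-labelled cRNA and read through a chemiluminescent reaction.

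The members carry file identifiers only. In all, 39 have identifiers starting with mCG, from the Celera mouse gene catalogue, and 22 have GenBank identifiers starting with AK, a series made up largely of full-length mouse cDNA clones. None of the 61 could be given a gene symbol from the tables used here, which name 316 of the 33012 probes, so no gene name, role or probe sequence is given for any of them. No identifier occurs more than once among the members. The share of AK identifiers was 36.07% among the members, against 12.87% among all gene probes without an NM_ identifier and 7.11% among the 13001 probes detected on all vehicle arrays. Among the 1368 vehicle-detected probes whose lowest vehicle S/N was under 5, it was 16.37%. The median difference between LPS and vehicle was -1.12 on the log2 scale for the AK members and -1.57 for the mCG members. It reached 1 log2 unit or more downward in 12 of the 22 AK members and in 30 of the 39 mCG members. The members were chosen on this contrast, and the shares over all AK and all mCG probes were not computed. Nothing is therefore read from these medians and counts.

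The members were weakly detected in vehicle cells, and few were undetected throughout in LPS-treated cells. The lowest of the 3 vehicle S/N values ranged from 3.01 to 17.04 over the members, with a median of 3.65. It was under 4 in 37 members, while 737 of the 13001 vehicle-detected probes lay under 4, and it was 10 or more in 2 members, while 9668 of those probes reached 10. On LPS-treated arrays, 5 members were undetected on all 30, 7 were detected on 1, 3 on 2, 10 on 3, 13 on 4, 8 on 5 and 15 on 6 arrays, the most that the rule allows. Thus 56 of the 61 were detected at least once after LPS. These values go against calling the probes switched off, and they are treated here as probes that mostly fell below the detection limit. The 15 members just inside the rule, with 24 undetected LPS-treated arrays, had a median lowest vehicle S/N of 3.85 and a median LPS-treated S/N of 1.72. The 13 probes just outside it, with 23 undetected arrays, had medians of 3.97 and 1.91. Leaving out vehicle replicate 1, 2 or 3 raised the number of probes that meet the rule to 122, 153 and 153. With fewer vehicle arrays to pass, that number could only rise.

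Signals after LPS were spread over the range under the limit. Of the 1830 member spots on the 30 LPS-treated arrays, 225 (12.3%) had an S/N of 3 or more, 320 (17.49%) one from 2 to under 3, 484 (26.45%) one from 1 to under 2, and 801 (43.77%) one under 1. On 805 of the spots (43.99%) the deposited signal equalled the spot's own standard deviation, which stands in these files in place of any smaller signal. The level of such a spot is therefore not a measured brightness. Flags above 5000 fell on 9 member spots of LPS-treated arrays, on 9 different members, and these spots were left out of the fits.

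Signals were quantile normalized between arrays, and differences were fitted on the log2 scale with limma, over 11 group means and all 33 arrays. The median difference between LPS alone and vehicle was -1.49 over the members, against -0.047 over the 19438 probes tested. Single members ranged from -3.89 to 0.31. LPS was lower by at least 1 log2 unit in 42 members (6.3% of all probes tested were lower by that much), by at least 2 in 15 and by at least 3 in 2. The remaining members comprised 18 that were lower by under 1 and 1 that was higher. The LPS and vehicle arrays did not overlap, with LPS lower, in 47 members (18.5% of all probes tested), and limma with Benjamini-Hochberg adjustment over all probes called 29 members lower (8.36% of all probes tested). These counts follow from the way the members were chosen, and nothing is read from them. In a culture read in bulk, fewer cells that hold a transcript and less of it per cell cannot be told apart.

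The drop was present in each of the 3 replicate numbers, which share a date according to the file headers. The rule used these same arrays, so this is a description and not a replication. Within replicates 1, 2 and 3 the median difference between LPS and vehicle was -1.54, -1.20 and -1.83, and 58 of the 61 members were lower in LPS each time. Precision was lower for these dim probes, with a median standard error of 0.49 log2 units for a difference between groups of 3. The median SD over replicates was 0.47 in LPS cells and 0.33 in vehicle cells. In the authors' deposited table of log2 values, made from the same arrays, the median difference was -1.55, with 60 of the 61 members lower.

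For 43 members all 3 arrays of LPS alone were below the detection limit, so the fold change is given as a bound. It sets the mean vehicle signal against, on each LPS array, the higher of the lowest detected signal of that array and the probe's own signal, and takes no account of error. The lowest detected signals were 165.7, 176.7 and 172.2 on the 3 LPS arrays. Where the probe's own signals lay above them, the bound restates the fitted difference, and the true fall may be smaller. The bounds ran from 1.05-fold lower to 14.5-fold lower in LPS cells, with a median of 3.12. They were 2 or more in 33 of the 43 members and 4 or more in 14. The other members were detected on 1 of 3 LPS arrays in 13 cases, on 2 of 3 in 4 cases and on 3 of 3 in 1 case. The 4 members on 2 of 3 arrays, named after their values were seen, were probes 404560, 347610, 858467 and 425386, with differences of -1.57, -0.72, -0.47 and -0.18.

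Probe 806634 (mCG6428.2) was the member furthest above the limit in vehicle cells and the one with the largest fall. Its normalized signal was 211.6, 165.7 and 279.7 in LPS cells, none of them detected, against 2975, 2897 and 3680 in vehicle cells, where its S/N was 19.75, 17.04 and 18.94. The difference was -3.89 ± 0.54 (SE, n = 3 each), and the bound, without account of error, was 14.5-fold lower with LPS. Every LPS-treated array, with or without compound, lay under every vehicle array. Even so, the probe was detected on 6 LPS-treated arrays, namely albiflorin 10, paeoniflorin 100, paeonol 1 and paeonol 10 replicate 1, and paeonol 100 replicates 1 and 3. Over the 27 compound arrays its signal ran from 165.7, which is the floor set on all signals, to 985.7, with a median of 198.9.

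Probes 906306 (mCG125749) and 918397 (mCG51765.2) were undetected on all 30 LPS-treated arrays, and they had the highest vehicle means of the members. Probe 906306 had signals of 512.9, 498.2 and 429.2 in LPS cells and of 13800, 2109 and 3246 in vehicle cells. Its difference was -3.25 ± 0.49 (SE, n = 3 each), with a bound, without account of error, of 9.52-fold lower with LPS. Its vehicle replicate 1 stood well above the other two, and without that array the difference was -2.45. Its signal over the 27 compound arrays ran from 189.2 to 860.3 with a median of 467.3, so no LPS-treated array reached the lowest vehicle array. Probe 918397 had signals of 1327, 1203 and 913.6 in LPS cells against 7124, 4625 and 5419 in vehicle cells. Its difference was -2.31 ± 0.51 (SE, n = 3 each), with a bound, without account of error, of 4.97-fold lower. Over the compound arrays its signal ran from 281.4 to 3290 with a median of 1235, also under every vehicle array.

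The other 3 members without any detected LPS-treated array, named after their values were seen, had smaller differences. Probe 325345 (mCG3145.2) differed by -1.24 ± 0.38, probe 916478 (mCG114306.1) by -0.51 ± 0.42 and probe 399042 (AK082634.1) by -0.07 ± 0.53 (SE, n = 3 each). For the last of these, 17 of the 30 LPS-treated arrays had a higher signal than the lowest vehicle array, although none was detected. Being undetected after LPS and being lower after LPS were therefore not the same in this group of probes. Over all members, 20 had every LPS-treated array under the lowest vehicle array in signal, 26 had 1 to 5 arrays above it and 15 had more than 5. The members were chosen on this contrast and the share over all probes was not computed, so nothing is read from these classes. The second member with a vehicle S/N of 10 or more on all 3 arrays, probe 434637 (mCG3533.1), belonged to the first of these classes. Its difference was -2.87 ± 0.54, with a bound, without account of error, of 7.31-fold lower with LPS.

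At the other end, probe 720402 (AK054115.1) was the 1 member that was higher with LPS, by 0.31 ± 0.47 (SE, n = 3 each). Its signals were 495.6, 534.7 and 898.2 in LPS cells, all detected with S/N of 3.11, 4.67 and 11.08, against 629.6, 419.8 and 469.9 in vehicle cells, with S/N of 3.20, 3.58 and 3.27. The 2 groups overlapped. It met the rule through the compound arrays, only 3 of which were detected among 27, and their median signal was 287.

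Each array of LPS-treated cells had between 2 and 16 of the 61 members detected, and the counts for LPS alone covered much of that range, with 6, 13 and 5. In cells given albiflorin with LPS the counts were 9, 5 and 4 at 1 µg/ml, 10, 3 and 8 at 10 µg/ml, and 5, 4 and 8 at 100 µg/ml. With paeoniflorin they were 10, 7 and 7 at 1 µg/ml, 6, 3 and 5 at 10 µg/ml, and 15, 10 and 8 at 100 µg/ml. With paeonol they were 4, 10 and 8 at 1 µg/ml, 8, 2 and 4 at 10 µg/ml, and 12, 10 and 16 at 100 µg/ml. The vehicle arrays had all 61 by the rule. Paeonol 100 µg/ml thus had the highest sum, 38 of 183 spots (20.77%), followed by paeoniflorin 100 µg/ml with 33 (18.03%), and LPS alone had 24 (13.11%). The paeonol 100 µg/ml arrays overlapped those of LPS alone, whose replicate 2 had 13. No compound group had a member detected on 3 of 3 arrays. Summed over doses, 56 of 549 spots (10.2%) were detected with albiflorin, 71 (12.93%) with paeoniflorin and 74 (13.48%) with paeonol. The rule itself capped these numbers at 6 of 30 arrays for each member, so a rise in one group leaves less room in another and no test is given.

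The arrays also differed in how many of all gene probes they detected, from 38.2% to 49.7%. The share was 46.5%, 46.7% and 47.4% with paeonol 100 µg/ml, 46.6%, 48.8% and 44.8% with LPS alone, and 48%, 46% and 44.7% with vehicle. The lowest, 38.2%, was that of paeoniflorin 10 µg/ml replicate 1, and paeonol 10 µg/ml replicate 3 had 2011 flagged probes. The part of this variation in the member counts was not tested.

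Against vehicle, the members were lower in every compound group by amounts like those with LPS alone. The median differences were -1.58, -1.42 and -1.49 with albiflorin at 1, 10 and 100 µg/ml, -1.46, -1.21 and -1.39 with paeoniflorin, and -1.50, -1.51 and -1.25 with paeonol. These comparisons share the vehicle arrays that chose the members, and they are descriptions. Array by array, the median member differed from the vehicle mean by -1.19, -1.37 and -1.30 log2 units with paeonol 100 µg/ml, and by -1.60, -1.39 and -1.64 with LPS alone. The array that stood apart was paeoniflorin 10 µg/ml replicate 1 at -0.86, against -1.52 and -1.63 for the other replicates of its group.

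The effect of each compound on the members was tested against LPS alone, again with limma over all probes. No member was called at any of the 9 combinations of compound and dose. The rule bears on this result, on the dose slopes and on the comparisons between compounds, because a probe that a compound brought back above the limit on more than 6 arrays could not be a member. Over all probes the share called was 0.0% in 8 of them and 0.144% with paeonol 100 µg/ml. Members with an unadjusted p under 0.05 numbered 3, 3 and 5 with albiflorin at 1, 10 and 100 µg/ml, 5, 11 and 5 with paeoniflorin, and 6, 6 and 10 with paeonol. The shares of all probes at that level were 1.23%, 2.07% and 1.86%, then 1.26%, 7.73% and 1.76%, and 6.65%, 3.0% and 7.61%. Without paeoniflorin 10 µg/ml replicate 1, 5 members had such a p in that comparison, all of them among the 11.

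The median difference from LPS alone was 0.31 with paeonol 100 µg/ml, where 38 of the 61 members were higher than in LPS alone. Over all probes that comparison had a median of 0.03, with 54.3% of probes higher. Leaving out single arrays moved the member median to between 0.13, without paeonol 100 µg/ml replicate 1, and 0.39, without its replicate 2. In the other 8 groups the median lay between -0.08 and 0.16. These intervals were wide. For 3 to 6 of the 61 members in each comparison the 95% interval lay within a 2-fold change in either direction, and for the other members it reached beyond such a change on at least 1 side.

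The member nearest to a call was probe 347610 (mCG4022.1), which was lower with paeonol 100 µg/ml than with LPS alone. Its signals were 206.6, 269.9 and 205.6 with paeonol 100 µg/ml, 577.7, 706.8 and 1322 with LPS alone, and 1131, 1148 and 1853 with vehicle. The paeonol arrays did not overlap those of LPS alone, and none of them was detected. The difference was -1.85 ± 0.46 (SE, n = 3 each; limma adjusted p = 0.146), with a 95% interval from -2.81 to -0.90. With the replicate number as a block, the lowest adjusted p of any member in this comparison was 0.0692. Its direction was away from the vehicle level.

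Probe 741971 (AK036265.1) had the largest fitted positive difference with paeonol, at 1 µg/ml. Its signals were 942.3, 441 and 773.8 with paeonol 1 µg/ml, 328.7, 165.7 and 168.1 with LPS alone, and 619.4, 727.9 and 658.7 with vehicle. The paeonol and LPS arrays did not overlap, but 1 of the 3 paeonol arrays and none of the LPS arrays was detected. The fitted difference was 1.71 ± 0.40 (SE, n = 3 each; limma adjusted p = 0.474), and since the LPS level lies in the background, the bound is at least 3.18-fold higher, again with no account of error. At 10 µg/ml the signals were 362.4, 525.9 and 376.8, and at 100 µg/ml they were 350.7, 608.2 and 631.3, both sets lying above all 3 arrays of LPS alone, as did those of paeoniflorin 10 µg/ml (395.2, 700.3 and 339.4).

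For the glycosides, the largest fitted positive differences did not pass the test either. Probe 646710 (AK020298.1) had signals of 26940, 426.7 and 534.5 with paeoniflorin 10 µg/ml, against 261.3, 497.7 and 608.7 with LPS alone. The first of these, from the array that stood apart, had an S/N of 22.5. The difference was 2.09 ± 0.91 (SE, n = 3 each; limma adjusted p = 0.629), and it was 0.15 without that array. Probe 646814 (mCG115466.2) had signals of 1666, 813.6 and 778.4 with albiflorin 10 µg/ml, of which the first was detected, against 437.9, 283.5 and 528.3 with LPS alone, none of them detected. These arrays did not overlap, yet the fitted difference was 1.34 ± 1.01 (SE, n = 3 each; limma adjusted p = 1.0). Its 95% interval ran from -0.75 to 3.42, so a rise was not shown. That wide error came with a signal of 20550 on paeoniflorin 10 µg/ml replicate 1, where the same probe had an S/N of only 1.07. The bound, 2.52-fold higher, restates the fitted difference and takes no account of error.

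The largest falls from LPS alone with both glycosides were those of probe 720402, the member that LPS had not lowered. Its signals were 261, 300.4 and 165.7 with albiflorin 10 µg/ml, and 222.7, 193.4 and 195.1 with paeoniflorin 100 µg/ml. All 6 values lay under the 495.6 to 898.2 of LPS alone. The differences were -1.40 ± 0.47 and -1.61 ± 0.47 (SE, n = 3 each; limma adjusted p = 1.0 for both). Because the rule asked for at least 24 undetected arrays, a probe detected on all 3 arrays of LPS alone had to be undetected on most compound arrays, so these falls are partly fixed by the choice of members.

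In all, 22 members were detected on 2 of 3 arrays of at least 1 compound group, 8 of them with paeonol 100 µg/ml and 6 with paeoniflorin 100 µg/ml. Of these 22, the ones with the highest mean S/N over such a group were probe 806634 with paeonol 100 µg/ml and probe 429646 (mCG10040.2) with paeoniflorin 100 µg/ml. Probe 806634 had signals of 575.9, 192.7 and 607 with paeonol 100 µg/ml, a difference from LPS alone of 0.93 ± 0.54 (SE, n = 3 each; limma adjusted p = 0.752), and replicate 2 lay inside the range of LPS alone. Probe 429646 had signals of 1064, 515.4 and 1684 with paeoniflorin 100 µg/ml, 837.9, 737.1 and 387.2 with LPS alone, and 679.8, 1329 and 1378 with vehicle. The groups overlapped, and the difference from LPS alone was 0.65 ± 0.59 (limma adjusted p = 1.0).

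Across doses, no member had a called slope on log10 dose for any of the 3 compounds. The share of all probes called was 0.0% for albiflorin and paeoniflorin and 0.0206% for paeonol. An unadjusted limma p under 0.05 was found for 2, 1 and 7 members with albiflorin, paeoniflorin and paeonol. The shares of all probes at that level were 3.29%, 1.42% and 6.8%. The median slope was 0.03, 0.02 and 0.15 log2 units per 10-fold of dose. With paeonol 42 of the 61 members had a positive slope, against 51.3% of all probes. For 53, 51 and 48 of the 61 members the 95% interval of the slope lay within a 2-fold change per 10-fold of dose.

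The compounds were also compared with each other at matched doses, in 3 pairs. Jointly over the 3 doses, no member was called between the isomers albiflorin and paeoniflorin (0.0% of all probes called; 4 members at an unadjusted p under 0.05). None was called between paeonol and albiflorin (0.0154%; 3 members) or between paeonol and paeoniflorin (0.00514%; 3 members) either, before any adjustment over the pairs. At an unadjusted p under 0.05 the shares of all probes in these 3 pairs were 2.53%, 9.14% and 4.67%. In the 9 comparisons at a single dose the members called also numbered 0, with between 2 and 8 at an unadjusted p under 0.05. From 1.47% to 11.32% of all probes were at that level. The shares of all probes called were 0.0103% and 0.0309% for paeonol against albiflorin at 1 and 100 µg/ml, 0.0154% for paeonol against paeoniflorin at 100 µg/ml, and 0.0% for the remaining comparisons. At 100 µg/ml the median member differed by -0.10 between albiflorin and paeoniflorin, by 0.28 between paeonol and albiflorin, and by 0.11 between paeonol and paeoniflorin. Between 4 and 8 of the 61 members had a 95% interval within a 2-fold difference in any of these comparisons, so the results do not show that the compounds act alike on the members.

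The opposite pattern, with S/N under 3 on all 3 vehicle arrays and 3 or more on at least 24 of the 30 LPS-treated arrays, was met by 91 probes. Their median difference between LPS and vehicle was 2.84, with 85 of them higher by at least 1 log2 unit and 44 by at least 3, against 42 and 2 members lower by as much. Over the 30 LPS-treated arrays, any undetected ones included, those probes had a median S/N of 9.02. The members had one of 5.09 where detected. Both sets were chosen by this contrast, so the difference between them was not tested.

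Among named probes, 1 met every other part of the rule but carried an NM_ identifier. It was Frat2, which encodes a GSK3-binding protein that promotes Wnt signalling. Its signals were 165.7, 165.7 and 325.8 in LPS cells and 770.9, 717.1 and 1619 in vehicle cells. The bound, without account of error, was 4.54-fold lower with LPS, and Frat2 was detected on 1 of the 30 LPS-treated arrays. Since no member has a symbol, the gene lists looked up by symbol could not reach the members. They were chosen with earlier results known, and few of their genes have a named probe. Of 15 genes listed as lowered by LPS in macrophages, the 3 with a named probe (Nanos1, Frat2 and H2bc18) were all called lower, against 8.36% of all probes. Of 19 NF-kB and interferon targets, the 4 with a named probe were all called higher, against 6.59% of all probes. Because the lists were chosen with these results known, nothing is read from either count. The only macrophage marker of 12 with a named probe, Cebpb, was detected on all 33 arrays, while none of the T cell, B cell or fibroblast markers had a named probe. The cell type thus rests on the labels, since the other listed markers could not be looked up.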

How the data were processed

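Scanner tables of 33 single-colour arrays were used. Per the file headers, each spot has a signal intensity, its standard deviation, a quality flag and a score of signal over noise. In these deposited intensities a signal under its standard deviation is replaced by it. The image software was not given in the sources used here. The authors' deposited table of log2 values, whose normalization is not stated, served as an alternative. Its vehicle replicate 1 equals the log2 scanner signal to within 2.24e-06, its array medians are 9.89 to 10.11, and each array's rank correlation with its scanner signals is at least 0.993.

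The 303 control spots and spots flagged above 5000 were left out. Signals were quantile normalized, floored at their 5th percentile (165.7) and log2 transformed. Probes detected (S/N of 3 or more, not flagged above 5000) on at least 3 of 33 arrays were fitted with limma 3.58.1 in R 4.3.3 (lmFit and eBayes, 11 group means). Of the 19438 probes tested, 1785 lacked at least 1 value and were fitted on the rest. Tests were two-sided, with Benjamini-Hochberg adjustment over all probes and a threshold of 0.05. The fits were tested on simulated data with independent normal noise on each array. Those data had no correlation between arrays of the same date and no replaced signals. The test therefore does not cover these features of the real arrays. The number of arrays limits the precision, and array medians of the unnormalized signal ran from 335.9 to 1439.7.

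The members and gene lists were chosen with earlier results of these data known. Probes given singly were the 2 with the largest fall among those undetected on all 30 LPS-treated arrays, the 2 with the highest vehicle mean, the smallest fall, the largest rise and fall per compound, and the 2 detected on most arrays of a compound group, ties going to the higher mean S/N over that group; a few more are marked in the text as named after their values were seen. Arrays of the same replicate number share a date in the file headers, which is where the pairing comes from. Over all pairs of arrays from different groups, deviations from group means had a median correlation of 0.193 for the same number. For different numbers the median correlation was -0.111. Every same-number pair of the 2 groups compared was over 0.1 in 5 of 10 comparisons with LPS alone. Alternatives were the detection limit, the number of undetected arrays, the flags, the NM_ identifiers, median scaling, the authors' table, no floor, no filter, the replicate block, only the groups compared and leaving out single arrays.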

Additional observations from a re-analysis of the deposited data

How the results depend on the processing

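The number of members depended on the rule. It was 128 with at least 20 undetected LPS-treated arrays and 5 with 30 of 30. Leaving out single arrays gave 46 to 153, the high values being those without a vehicle replicate (122, 153 and 153 without replicates 1, 2 and 3). A detection limit of 2 gave 64 probes, of which 17 were among the 61, and a limit of 5 gave 79, of which 12 were. With flags limited on all arrays it was 52, and with NM_ identifiers kept it was 62. The members called lower with LPS, a count that describes the rule's own contrast, numbered 29, and 23 to 25 without single LPS or vehicle arrays. They numbered 28 to 32 under median scaling, the authors' table, no floor, no filter, the replicate block (31), only the groups compared and, as an alternative chosen after seeing the data, without paeoniflorin 10 µg/ml replicate 1 and paeonol 10 µg/ml replicate 3. Among the 5 members undetected on 30 of 30 arrays, 3 were called. The median difference was -1.60 to -1.46 without single arrays. In the 15 tests of compounds, no member was called under any of 255 settings, and the lowest adjusted p was 0.0692, in the fit with the replicate block, which changed no call of a member between compounds and LPS alone. The headers give no array batch beyond the date, so an array batch as a random block was not run. What limits these results is signal over background: most member spots after LPS were under the detection limit, where levels are not measured well.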
